A study of Arabidopsis thaliana with 6 samples.

Results

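Glutathione transferases were followed as a family of 46 genes in *cat2-2* mutant leaves of *Arabidopsis thaliana*: 28 of the tau class (GSTU1 to GSTU28), 13 of the phi class (GSTF2 to GSTF14), 2 of the zeta class (GSTZ1 and GSTZ2) and 3 of the theta class (GSTT1 to GSTT3). They were taken by locus, as whole classes, and all 46 were found among the 33602 genes counted. The 6 libraries all came from 3-week-old plants of genotype *cat2-2* in ecotype Columbia-0, a line that carries a mutation in the leaf catalase gene CAT2. The group called high CO2 (3 libraries) stayed where it had grown, at 3000 ppm CO2, 120 µmol m-2 s-1 of light, 75% relative humidity and 21 °C in days of 16 h and nights of 8 h. The group called high light (3 libraries) had spent 3 h in another chamber, in ambient air of 400 ppm CO2 at 1200 µmol m-2 s-1, 55% relative humidity and 21 °C. Each library pooled middle-aged leaves of 15 plants, and the whole experiment was repeated for each biological repeat. Carbon dioxide, light, humidity, chamber and time all changed at the same step, and a wild type was not included, so their parts in a difference cannot be told apart.

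Glutathione transferases join the tripeptide glutathione to reactive or foreign molecules, which are then moved into the vacuole and broken down, and some members reduce organic peroxides or carry small molecules instead. Tau and phi are plant-typical classes that grew by tandem duplication and hold many genes known to be induced by oxidants, pathogens and xenobiotics. Zeta members work in the breakdown of tyrosine, and theta members have peroxidase activity, with GSTT1 known in peroxisomes.

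The libraries held 18047295 to 24149149 counts. Over a group, a count of 0 allows up to 3 counts, equal to 0.0477 CPM (read counts normalised to library size with TMM factors) in high CO2, against 0.0451 CPM in high light, and such floors cover counting error only. CAT2 (AT4G35090) was still transcribed, with 1760, 2427 and 1752 counts in high CO2, against 724, 1010 and 928 in high light. All 5 leaf markers were abundant and fell together (summed 52608 to 73607 CPM in high CO2, 23114 to 32540 CPM in high light). Root markers summed to at most 0.554 CPM in any library, seed markers to at most 0.0521 CPM, with OLEO1 and SESA3 at 0, shoot meristem markers to at most 0.0521 CPM, with WUS at 0, and flower markers to 1.28 to 1.96 CPM in high CO2 and 0.520 to 0.919 CPM in high light. Vascular markers summed to 221 to 238 CPM and then 145 to 189 CPM (0 of 3 rose, 2 fell), and markers of epidermis, guard cells and trichomes to 80.2 to 87.2 CPM and then 61.0 to 75.1 CPM (1 of 5 rose, KAT1, and 3 fell). In bulk leaves, fewer cells of a type and less RNA per cell cannot be told apart, and the part of these markers in the results below was not tested.

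More transferases rose than fell. Of the 40 members with enough counts to test, 24 (60%) rose, 9 (22.5%) fell and 7 were not called, by the quasi-likelihood test of edgeR, adjusted after Benjamini-Hochberg over all 18504 genes tested with a threshold of 0.05. Among all genes, 30.4% rose and 30.3% fell (60.8% in either direction). The risen share of the transferases lay above that background, and nothing is read from their lower fallen share. With upper-quartile scaling the split of all genes shifted to 4386 risen and 7883 fallen, while 24 members still rose and 12 fell. The median log2 fold change (high light against high CO2) was 2.33 over tested members and -0.06 over all genes, or 2.06 and -0.33 with upper-quartile scaling. Large rises were frequent: 17 of the 40 tested members rose at least 8-fold, against 5.79% of all genes tested. At least 32-fold rises were fitted for 13 of the 40 (12 with the members at 0 counts set to their bound), against 2.36% of all genes tested. GSTU2, GSTU3, GSTU8, GSTU11, GSTU12, GSTU22, GSTU25 and GSTF3 had only 0 to 25 counts over the high CO2 group. They had enough counts to test only through high light, so they could be called only as risen. They enter the risen share, the median and the large rises, and also the number of members over which the fallen share is taken. The same filter was applied to all genes, and shares without such genes were not computed. Only GSTF11 fell to 0.25 of its level or less, as 1.83% of all genes did. The libraries of the groups did not overlap for 33 of the 40 tested members, against 67.2% of all genes tested. Without high CO2 replicate 2, 24 members rose and 3 fell, beside 5057 and 4274 of all genes, and without high light replicate 3 the counts were 24 and 5, beside 5085 and 4740 of all genes (5631 and 5612 with all libraries). GSTU20, GSTU23 and GSTF11 were called as fallen under every alternative run. The 6 members not tested (GSTU14, GSTU15, GSTU21, GSTF13, GSTF14 and GSTZ2) had 0 to 28 counts in a group.

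**Figure D1:**
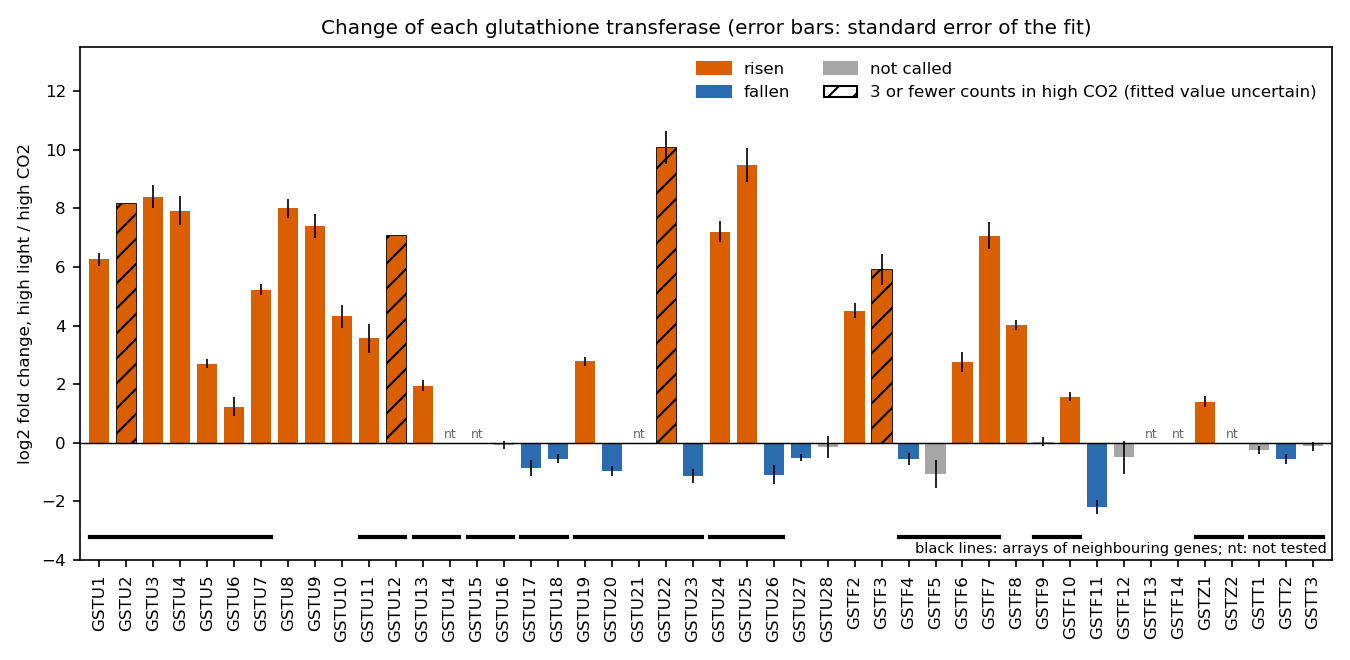
Fitted log2 fold change of each member, high light against high CO2 (y axis), in the order of the gene names (x axis), with the standard error of the fit as error bars. Orange bars rose, blue bars fell and grey bars were not called, hatched bars had 3 or fewer counts in high CO2 so that their height is uncertain (no error bar where all 3 libraries were at 0), nt marks members not tested, and black lines join members of 1 gene array. The 24 rises reach a log2 fold change of 10.08 and the 9 falls end at -2.18.

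The tau class held 13 of the 17 rises of at least 8-fold. Of its 25 tested members 17 rose, 6 fell and 2 were not called, with a median log2 fold change of 3.57. Of the 11 tested phi members 6 rose, 2 fell and 3 were not called, with a median of 1.58. The single tested zeta member rose, and none of the 3 theta members did. The tau members GSTU2, GSTU3, GSTU8, GSTU11, GSTU12, GSTU22 and GSTU25 and the phi member GSTF3 could be tested only through high light. They enter these counts and medians, and the tau median is the value of GSTU11, with 5 counts over the high CO2 group. A difference between the classes was not tested, and none is read from these values. Annotated gene structure differs between the classes too: every tau gene has 2 exon blocks, phi genes have 2 to 6, theta genes 6 to 8 and zeta genes 9 or 10.

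**Figure D2:**
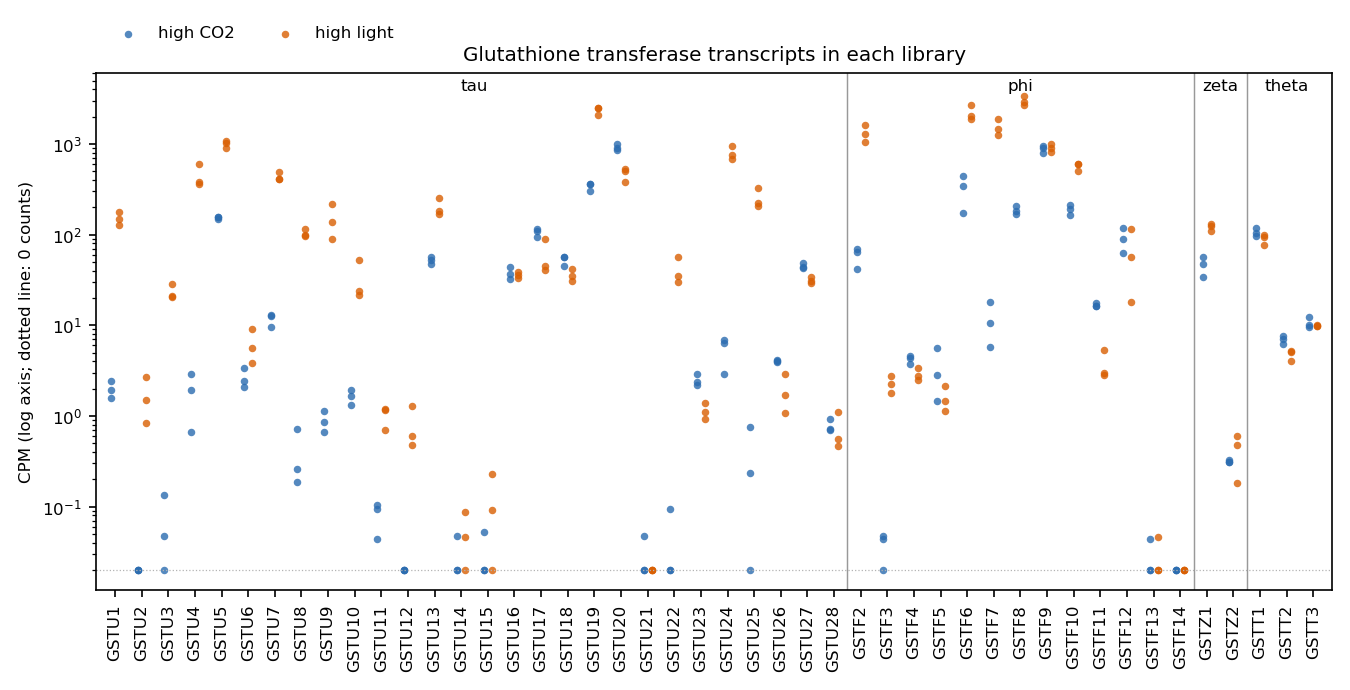
CPM of each member in each library (y axis, log scale), with 1 point per library, high CO2 in blue and high light in orange. Points on the dotted line are libraries with 0 counts, and heights of different genes are not corrected for gene length. In the tau class, the high light points of GSTU1 to GSTU5, GSTU7 to GSTU9, GSTU22, GSTU24 and GSTU25 stand clear above the high CO2 points.

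In the largest array, GSTU1 to GSTU7 on chromosome 2 (chr2:12617936-12632538 in TAIR10.1, minus strand, with 3 other genes in between), all 7 members rose, by log2 fold changes of 1.24 to 8.40. GSTU3 (AT2G29470) had 1, 3 and 0 counts in the high CO2 libraries, against 446, 483 and 621 in the high light libraries. GSTU4 (AT2G29460) had 0.661, 2.93 and 1.93 CPM in high CO2, against 382, 362 and 595 CPM in high light. GSTU3 was near the floor in high CO2 and GSTU4 low but counted in each library, and for both every high light library was far above every high CO2 library. The log2 fold change was 8.40 ± 0.40 (SE, n = 3 per group) for GSTU3 (edgeR adjusted p = 6.74e-07) and 7.91 ± 0.49 for GSTU4 (edgeR adjusted p = 3.01e-06). Without high CO2 replicate 2 that of GSTU3 was 9.60. GSTU2 (AT2G29480) had 0 counts in high CO2, against 18, 35 and 59 in high light, at least 35.3-fold higher when the group is set to its floor (edgeR adjusted p = 8.16e-04). The bound was 22.7-fold without high CO2 replicate 2 and 23.4-fold without high CO2 replicate 1. Of the exon bases of GSTU2, 70.3% lie opposite a gene on the other strand, as do 68.9% of those of GSTU7 and 29.9% of those of GSTU6, and how strand was treated in the counting is not known here. The partner of GSTU6, AT2G29430, had 0 counts in high CO2, against 22, 31 and 26 in high light.

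The other members of that array differed in their starting level. GSTU5 (AT2G29450) was already at 154 ± 4.73 CPM (SD, n = 3) in high CO2 and rose 6.51-fold, to 1006 ± 91.6 CPM. GSTU7 (AT2G29420) rose from 11.7 ± 1.90 to 439 ± 44.9 CPM and GSTU1 (AT2G29490) from 1.96 ± 0.421 to 151 ± 24.9 CPM. The smallest rise was that of GSTU6 (AT2G29440), a change of 2.61 ± 0.662 CPM to 6.18 ± 2.72 CPM (a log2 fold change of 1.24 ± 0.33, edgeR adjusted p = 0.0112). Its coding sequence matches that of GSTU5 at 83.5% of bases. Coding identity within the array ran from 64.7% (GSTU3 and GSTU7) to 85.9% (GSTU1 and GSTU2).

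Promoters of the array were read because TGA transcription factors bind the core TGACG, and a pair of such cores is the as-1 element, first known from a viral promoter and found at several stress-induced transferases. The 250 bases before the annotated start of each gene in TAIR10.1 were searched on both strands (CGTCA on the other strand). A pair with starts 12 bases apart, the spacing of as-1, was present in GSTU1 and GSTU7 and in 27 of 27443 promoters (0.1%). The pair of GSTU1 lies at chr2:12632599-12632615 and that of GSTU7 at chr2:12618944-12618960, both on the minus strand, and both are shown because the spacing is rare, with TGACG and CGTCA in capitals.
GSTU1 pair: TGACGttggcaaTGACG
GSTU7 pair: CGTCActggTGACGTCA
In GSTU7 the cores face both ways and TGACG overlaps CGTCA, and its 250-base window also holds exon bases of another gene, AT2G00850. The whole window of GSTU1 (chr2:12632539-12632788, minus strand, 5′ to 3′, TGACG in capitals) holds the pair 77 and 65 bases before the annotated start.
GSTU1 window: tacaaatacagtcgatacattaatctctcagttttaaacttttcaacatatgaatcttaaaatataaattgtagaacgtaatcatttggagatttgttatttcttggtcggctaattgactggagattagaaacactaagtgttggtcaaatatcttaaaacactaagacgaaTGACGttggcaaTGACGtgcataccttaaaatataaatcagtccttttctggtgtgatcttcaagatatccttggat
A match in these letters is a description, not a binding site or a cause.

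The array GSTU19 to GSTU23 on chromosome 1 (chr1:29467412-29488007, minus strand, no other gene in between) moved in both directions. GSTU22 (AT1G78340) had 2, 0 and 0 counts in high CO2, against 752, 699 and 1239 in high light. All high light libraries were far above all high CO2 libraries. The ratio of library-scaled counts was 1272 (95% exact binomial interval 352 to 10505, counting error only), with a fitted log2 fold change of 10.08 ± 0.55 (edgeR adjusted p = 1.3e-06), the largest of the family. The ratio rests on 2 counts of high CO2 replicate 1: without that library the rise was at least 562-fold, and without high CO2 replicate 2 the ratio was 817. GSTU20 (AT1G78370), known to bind the jasmonate-conjugating enzyme JAR1 and linked to aliphatic glucosinolate synthesis, went the other way, with 989, 894 and 862 CPM in high CO2, against 530, 382 and 505 CPM in high light. Its groups did not overlap, and its level fell by 0.95 ± 0.17 on the log2 scale (edgeR adjusted p = 0.00119).

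GSTU19 (AT1G78380), an abundant transferase of leaves, had 362, 365 and 307 CPM in high CO2, against 2482, 2095 and 2515 CPM in high light. Every high light library was several times above every high CO2 library (6.86-fold, log2 fold change 2.78 ± 0.16, edgeR adjusted p = 2.14e-06). Its coding sequence matches that of GSTU20 at 76.9% of bases and lies next to it. Per coding length, the ratio of GSTU19 to GSTU20 was 0.363, 0.405 and 0.352 in the high CO2 libraries, against 4.64, 5.43 and 4.93 in the high light libraries, so GSTU20 was the higher of the pair in every high CO2 library and GSTU19 in every high light library. GSTU23 (AT1G78320) had 2.88, 2.22 and 2.39 CPM in high CO2, against 1.11, 1.39 and 0.919 CPM in high light, and it fell by 1.13 ± 0.25 on the log2 scale (edgeR adjusted p = 0.00429). GSTU21 (AT1G78360) had 1 count in all, in high CO2 replicate 1.

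The windows before GSTU22, which rose most, and GSTU20, which fell, are shown side by side because they belong to 1 array (GSTU22 at chr1:29474004-29474253 and GSTU20 at chr1:29485390-29485639, both minus strand, 5′ to 3′, TGACG in capitals).
GSTU22 window: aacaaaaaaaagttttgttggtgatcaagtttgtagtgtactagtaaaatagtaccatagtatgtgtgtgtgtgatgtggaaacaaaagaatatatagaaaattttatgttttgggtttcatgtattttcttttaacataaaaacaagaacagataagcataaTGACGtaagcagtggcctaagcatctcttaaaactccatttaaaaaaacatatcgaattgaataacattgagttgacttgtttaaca
GSTU20 window: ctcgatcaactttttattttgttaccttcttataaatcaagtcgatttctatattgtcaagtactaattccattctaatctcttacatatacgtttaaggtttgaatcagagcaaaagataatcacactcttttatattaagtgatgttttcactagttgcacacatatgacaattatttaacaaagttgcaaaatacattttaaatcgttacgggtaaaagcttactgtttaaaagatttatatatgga
The GSTU22 window holds 1 TGACG, 87 bases before the annotated start, and the GSTU20 window holds none on either strand. In the same array, the windows of GSTU19, which rose, and GSTU23, which fell, hold none either.

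A further mixed array was GSTU24 to GSTU26 on chromosome 1 (chr1:5869543-5876620, plus strand, no other gene in between). GSTU24 and GSTU25 encode enzymes known to conjugate the explosive TNT with glutathione. GSTU25 (AT1G17180) had 5, 17 and 0 counts in high CO2, against 4822, 4729 and 7081 in high light. GSTU24 (AT1G17170) had 2.88, 6.44 and 6.87 CPM in high CO2, against 765, 683 and 942 CPM in high light. For both, each high light library was far above each high CO2 library. The log2 fold change was 9.48 ± 0.58 for GSTU25 (edgeR adjusted p = 2.62e-06), or 10.96 without high CO2 replicate 2, and 7.21 ± 0.37 for GSTU24 (edgeR adjusted p = 9.95e-07). Their neighbour GSTU26 (AT1G17190), with 70.7% coding identity to GSTU25, had 4.02, 4.18 and 3.90 CPM in high CO2, against 2.91, 1.08 and 1.70 CPM in high light, a fall of 1.09 ± 0.32 on the log2 scale (edgeR adjusted p = 0.0169). The call was lost when high CO2 replicate 2 (edgeR adjusted p = 0.0534) or high light replicate 3 (edgeR adjusted p = 0.0520) was left out, and the refits with edgeR spanned 0.00243 to 0.104.

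The windows of GSTU25, which rose, and of its neighbour GSTU26, which fell, are shown for the same comparison (GSTU25 at chr1:5871774-5872023 and GSTU26 at chr1:5875045-5875294, both plus strand, 5′ to 3′, TGACG in capitals).
GSTU25 window: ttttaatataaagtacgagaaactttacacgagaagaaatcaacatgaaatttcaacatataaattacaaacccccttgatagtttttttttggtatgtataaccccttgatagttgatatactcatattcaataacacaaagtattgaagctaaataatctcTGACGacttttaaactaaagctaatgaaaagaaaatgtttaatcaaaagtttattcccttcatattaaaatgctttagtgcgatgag
GSTU26 window: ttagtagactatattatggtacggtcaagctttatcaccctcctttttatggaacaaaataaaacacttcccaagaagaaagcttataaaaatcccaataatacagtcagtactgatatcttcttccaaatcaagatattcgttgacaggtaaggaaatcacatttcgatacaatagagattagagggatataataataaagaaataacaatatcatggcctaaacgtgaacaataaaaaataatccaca
TGACG stands 87 bases before the annotated start of GSTU25, the same distance as in GSTU22, and is absent from the GSTU26 window on both strands. Whether distance goes with direction was not tested, since only 1 fallen member, GSTU27, holds TGACG in its window. In GSTU27, which fell, TGACG stands 89 bases before the start, and in other risen members it stands from 15 (GSTF10) to 244 bases (GSTF3, as CGTCA) before it.

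Tau genes outside these arrays also rose from low levels. GSTU8 (AT3G09270) had 0.189, 0.711 and 0.260 CPM in high CO2, against 95.5, 99.0 and 114 CPM in high light, a log2 fold change of 8.00 ± 0.32 (edgeR adjusted p = 3.55e-07), or 8.84 without high CO2 replicate 2. GSTU9 (AT5G62480) had 0.850, 0.667 and 1.15 CPM in high CO2, against 139, 90.5 and 218 CPM in high light, a log2 fold change of 7.40 ± 0.41 (edgeR adjusted p = 1.6e-06). In both genes no library of 1 group reached the other group, and GSTU9 spread more among the high light libraries. GSTU12 (AT1G69920) had 0 counts in high CO2, against 13, 11 and 28 in high light, at least 16.4-fold higher (edgeR adjusted p = 0.00169), or at least 10.5-fold and 10.9-fold without high CO2 replicates 2 and 1. Its neighbour GSTU11 (AT1G69930) rose from 5 counts to 67 over the groups, and GSTU10 (AT1G74590) from 1.63 ± 0.295 to 32.7 ± 17.5 CPM. GSTU13 (AT1G27130), linked to indole glucosinolate metabolism, rose 3.87-fold from an already clear level of 52.3 ± 4.66 CPM. Its array neighbour GSTU14, with 87.3% coding identity, had 1, 0 and 0 counts in high CO2, against 0, 2 and 1 in high light.

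The remaining tau members fell a little or were not called. GSTU17 (AT1G10370), also known as ERD9 and linked to light and abscisic acid responses, had 110, 114 and 94.6 CPM in high CO2, against 89.5, 44.7 and 40.9 CPM in high light. GSTU18 (AT1G10360), its neighbour, had 56.3, 56.6 and 44.6 CPM and then 42.1, 35 and 31.1 CPM. GSTU27 (AT3G43800) had 44.4, 48.2 and 42.7 CPM and then 31.1, 34.4 and 29.2 CPM. In all 3 the groups stayed apart, narrowly for GSTU17 and GSTU18. GSTU17 fell by 0.87 ± 0.28 on the log2 scale (edgeR adjusted p = 0.0252), GSTU18 by 0.54 ± 0.16 (edgeR adjusted p = 0.0152) and GSTU27 by 0.52 ± 0.12 (edgeR adjusted p = 0.00529). The calls of GSTU17 and GSTU18 were lost when any 1 of high CO2 replicates 1 and 2 or high light replicates 2 and 3 was left out, that of GSTU17 also without high CO2 replicate 3, and that of GSTU27 without high CO2 replicate 2. Over the edgeR refits the adjusted p ran from 3.94e-04 to 0.196 for GSTU17, from 0.00217 to 0.153 for GSTU18 and from 5.54e-04 to 0.0516 for GSTU27.

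GSTU16 (AT1G59700) had 32.7, 36.8 and 43.6 CPM in high CO2, against 38.7, 33.0 and 35.5 CPM in high light, and its groups overlapped (edgeR adjusted p = 0.653). GSTU28 (AT1G53680) had 15, 16 and 18 counts and then 10, 13 and 24, again with overlap (edgeR adjusted p = 0.766). GSTU15 (AT1G59670), the array neighbour of GSTU16, had 0, 0 and 1 count in high CO2, against 2, 0 and 5 in high light, too few to test.

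In the phi class the rises were led by GSTF7 (AT1G02920), in the array GSTF4 to GSTF7 on chromosome 1 (chr1:658578-666471, minus strand). GSTF7 had 5.72, 18 and 10.6 CPM in high CO2, against 1262, 1451 and 1902 CPM in high light, a log2 fold change of 7.07 ± 0.46 (edgeR adjusted p = 3.65e-06). Its neighbour GSTF6 (AT1G02930), which joins glutathione to an indole precursor of the defence compound camalexin, had 174, 342 and 448 CPM in high CO2, against 1876, 2020 and 2661 CPM in high light. All high light libraries of both genes were above all high CO2 libraries, and high CO2 replicate 1 was lowest for both. GSTF6 rose by 2.77 ± 0.33 on the log2 scale (edgeR adjusted p = 1.44e-04). Their coding sequences match at 94.7% of bases, and 9.41% of the 50-base stretches of GSTF6 transcripts also occur in GSTF7, so the split of such reads between them is uncertain. Per coding length the ratio of GSTF7 to GSTF6 was 0.0326, 0.0523 and 0.0236 in high CO2, against 0.669, 0.715 and 0.712 in high light.

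The other members of that array stayed low. GSTF4 (AT1G02950) had 4.63, 4.36 and 3.75 CPM in high CO2, against 3.42, 2.77 and 2.48 CPM in high light, and it fell by 0.56 ± 0.20 on the log2 scale (edgeR adjusted p = 0.0375). This call was lost without any 1 of 4 libraries (high CO2 replicates 1 and 2, high light replicates 2 and 3), with library totals alone and with DESeq2, and the adjusted p ran from 0.00664 to 0.204 over its edgeR refits. Of its exon bases 29.3% lie opposite a non-coding gene that had 0 counts in every library. GSTF5 (AT1G02940) had 1.46, 2.80 and 5.62 CPM in high CO2, against 1.48, 1.13 and 2.11 CPM in high light. Its groups overlapped and the high CO2 libraries spread widely (log2 fold change -1.06 ± 0.47, edgeR adjusted p = 0.0785). Without high CO2 replicate 1 it was called as fallen (log2 fold change -1.41, edgeR adjusted p = 0.0132), and without high CO2 replicate 3 the value was -0.39. It was called as fallen too with the replicate number as a block (-0.97, edgeR adjusted p = 0.0192) and with upper-quartile scaling (-1.33, edgeR adjusted p = 0.0336).

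GSTF8 (AT2G47730), long used as a marker of hydrogen peroxide and salicylate responses, had 182, 206 and 168 CPM in high CO2, against 2911, 2718 and 3413 CPM in high light. It rose 16.3-fold with little spread within the groups (log2 fold change 4.02 ± 0.18, edgeR adjusted p = 5.42e-07). GSTF2 (AT4G02520), known to bind camalexin and other indole compounds, had 41.7, 68.6 and 64.3 CPM in high CO2, against 1060, 1288 and 1632 CPM in high light. It rose 22.8-fold, with every high light library far above the high CO2 group (log2 fold change 4.51 ± 0.27, edgeR adjusted p = 2.21e-06). Of the exon bases of GSTF2, 60.5% lie opposite TOC159, which had 3165 to 5444 counts per library in high CO2, against 2019 to 2504 in high light, and so moved the other way. GSTF3 (AT2G02930), with 94.5% coding identity to GSTF2, went from 2 counts to 150 over the groups, a ratio of 70.9 (95% exact binomial interval 19.3 to 591, counting error only). GSTF2 and GSTF3 share 2.46% and 3.51% of their 50-base stretches, so the split of such reads between them is uncertain. Over the high light group GSTF2 had 88223 counts, against the 150 of GSTF3. How far reads of GSTF2 enter the count of GSTF3 was not tested.

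GSTF9 and GSTF10 are neighbours on chromosome 2 (chr2:13138882-13142676, plus strand) with 77.6% coding identity. GSTF9 (AT2G30860), 1 of the most abundant transferases of leaves, had 945, 906 and 797 CPM in high CO2, against 1006, 815 and 895 CPM in high light. Its groups overlapped (log2 fold change 0.04 ± 0.15, edgeR adjusted p = 0.848). GSTF10 (AT2G30870), also known as ERD13, had 166, 211 and 193 CPM in high CO2, against 596, 505 and 600.2 CPM in high light, a rise of 2.99-fold with no overlap (log2 fold change 1.58 ± 0.15, edgeR adjusted p = 4.27e-05). Per coding length the ratio of GSTF10 to GSTF9 was 0.217 ± 0.036 (SD, n = 3) in high CO2 and 0.628 ± 0.040 in high light.

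GSTF11 (AT3G03190), linked to aliphatic glucosinolate synthesis, had 17.6, 16.3 and 16.5 CPM in high CO2, against 5.36, 2.86 and 2.94 CPM in high light. Its groups were far apart, and it fell 4.52-fold, the largest fall of the family (log2 fold change -2.18 ± 0.24, edgeR adjusted p = 8.1e-05). All of its exon bases lie opposite NAC045, which had only 26, 13 and 14 counts in high CO2, against 13, 9 and 12 in high light. GSTF12 (AT5G17220), known as TT19 and needed to bring anthocyanins to the vacuole, had 63.4, 88.5 and 120 CPM in high CO2, against 57.3, 18.1 and 117 CPM in high light. The high light libraries ranged from below to within the high CO2 group, and the change was not called (log2 fold change -0.50 ± 0.55, edgeR adjusted p = 0.455). Without high light replicate 3 the value was -1.26, still not called. GSTF13 (AT3G62760) had 0, 1 and 0 counts in high CO2, against 0, 0 and 1 in high light, and GSTF14 (AT1G49860) had 0 counts in every library.

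Of the zeta and theta classes, only GSTZ1 rose. GSTZ1 (AT2G02390), the maleylacetoacetate isomerase of tyrosine breakdown, rose from 46.3 ± 11.4 to 122 ± 11.3 CPM with no overlap (log2 fold change 1.4 ± 0.19, edgeR adjusted p = 2.92e-04). Its neighbour GSTZ2 (AT2G02380) had 7, 7 and 6 counts in high CO2, against 13, 11 and 4 in high light and was not tested. GSTT1 (AT5G41210) had 95.9, 104 and 118 CPM in high CO2, against 93.5, 76.4 and 98.7 CPM in high light, with overlap (edgeR adjusted p = 0.181). GSTT3 (AT5G41220) had 214, 216 and 238 counts and then 211, 226 and 217, also with overlap (edgeR adjusted p = 0.488). Only GSTT2 (AT5G41240) was called among the theta genes, with 6.28, 6.98 and 7.55 CPM in high CO2, against 4.06, 5.02 and 5.15 CPM in high light, a fall of 0.55 ± 0.17 on the log2 scale (edgeR adjusted p = 0.019). That call was lost when any 1 of high CO2 replicates 2 and 3 or high light replicate 1 was left out and with library totals alone (edgeR adjusted p 0.00223 to 0.10 over its refits), and with upper-quartile scaling GSTT1 and GSTT3 were called as fallen too. The 3 theta coding sequences match at 89.3% to 91.3% of bases and share 3.69% to 7.05% of their 50-base stretches.

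Members rose from low and from clear levels. Of the 24 risen members, 14 lay below 10 CPM in high CO2 and 10 at or above it. Members near 0 in high CO2 could be tested only through their level in high light, so the size of a rise is not read against the starting level. In high CO2, 0 of the 46 members reached 1000 CPM, and in high light 6 did. The 3 members that fell in every alternative run spanned starting levels of 2.50 to 915 CPM.

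**Figure D3:**
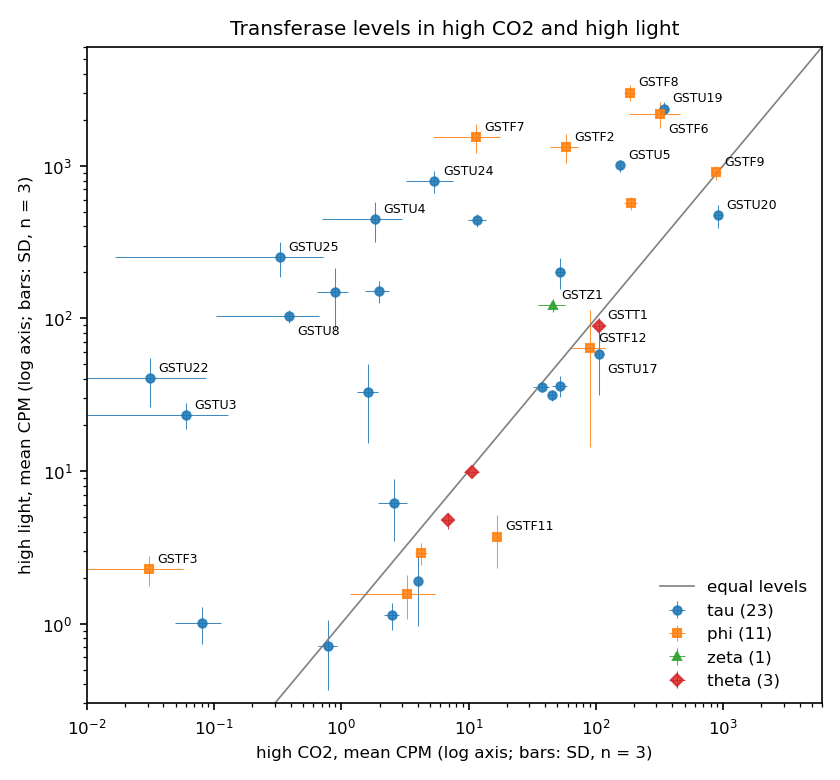
Mean CPM of each tested member in high CO2 (x axis, log scale) and in high light (y axis, log scale), with SD over 3 libraries as bars. The lower x bars are cut short where the SD is close to or above the mean, so their ends are not limits. Symbols give the class, the line marks equal levels, and the 2 members with 0 counts in high CO2 are not drawn. GSTU22 and GSTU25 lie far above the line, while GSTU20 and GSTF11 lie below it.

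All members together took 0.358%, 0.380% and 0.365% of the TMM-scaled counts in high CO2, against 1.57%, 1.48% and 1.89% in high light. Every high light library was several times above every high CO2 library (0.368% ± 0.011 and 1.65% ± 0.217, SD, n = 3), and the two-sided exact permutation test gave p = 0.1, the smallest that 3 against 3 libraries allow. The make-up of this pool turned over as well. Per coding length, GSTU20 (25.3% ± 2.39) and GSTF9 (24.6% ± 2.36) led in high CO2, followed by GSTU19 (9.43% ± 0.897), GSTF6 (9.23% ± 3.92) and GSTF10 (5.28% ± 0.485). These 5 genes made up 73.9% ± 1.17 of the pool in high CO2 and 41.2% ± 1.73 in high light. GSTU20 and GSTF9 did not differ beyond their spread, nor did GSTU19 and GSTF6.

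In high light the pool was led by GSTF8 (15.6% ± 0.227), GSTU19 (14.7% ± 1.31), GSTF6 (14.2% ± 1.20), GSTF7 (9.94% ± 1.17) and GSTF2 (8.46% ± 1.16). GSTF8 was above GSTF6 in every high light library, and GSTU19 overlapped both. GSTU20 held 2.96% ± 0.448 there and GSTF9 5.77% ± 0.875, the former with a called fall and the latter without a called change. Phi members made up 48.5% ± 3.01 of the pool in high CO2 and 58.0% ± 2.27 in high light, and tau members 47.5% ± 3.50 and 40.8% ± 2.19. The order at the top depends on the length used: with the union of all annotated exons, GSTF8 ranked 4 in high light while GSTU19 led with 16.8%, because the annotation gives GSTF8 a long alternative leader.

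**Figure D4:**
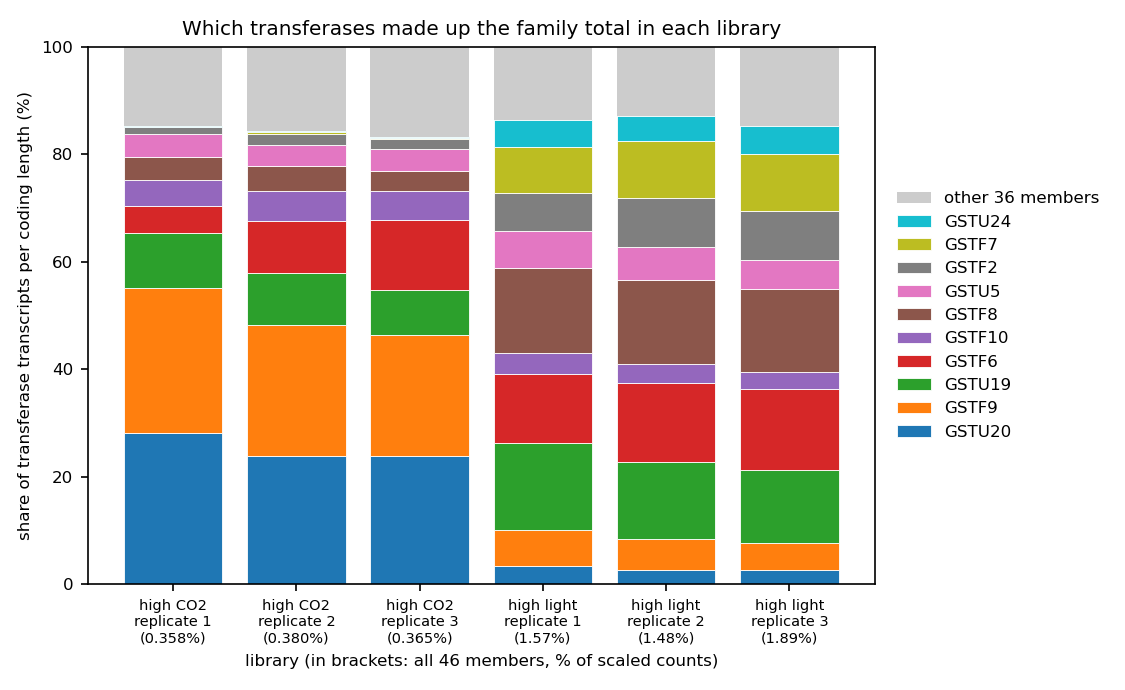
Share of all transferase transcripts, per coding length, held by the 10 members with the largest shares and by the other 36 members together (y axis, %), in each library (x axis, with the share of all scaled counts held by the 46 members in brackets). GSTU20 and GSTF9 (blue and orange) fill the lower part of the bars in high CO2 and shrink in high light, where GSTF8, GSTF7, GSTF2 and GSTU24 widen.

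Across the family, TGACG stood within 250 bases before the annotated start of 15 of 46 members (32.6%) and of 18.6% of all 27443 promoters. It was found in 13 of the 24 risen members (54.2%), 1 of the 9 fallen (GSTU27), 1 of the 7 not called (GSTT1) and 0 of the 6 not tested. A split by call was not made for all genes, for this motif or those below. It is therefore not known whether the share in risen members differs from that in all risen genes. Members of 1 array share ancestry, so the members are not independent cases, and for GSTF8 the window lies before a start 1887 bases upstream of the coding sequence. The windows of GSTU5, GSTU7, GSTU24 and GSTF8, which hold TGACG, also hold exon bases of other genes. Rises also came without TGACG: GSTU2, GSTU4, GSTU8, GSTU10, GSTU12, GSTU13, GSTU19, GSTF2, GSTF6, GSTF7 and GSTZ1 had none in the window. The W box core TTGAC, bound by WRKY factors, stood in 25 members (16 of the 24 risen) and 44.9% of all promoters. It overlaps TGACG where the letters run TTGACG. The heat shock element core GAANNTTC stood in 6 members and 9.6% of all promoters. No match says only that these letters are not in the window.

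A stretch outside these motifs was shared by risen genes of different arrays. Just after their TGACG, the windows of GSTU22 and GSTU24 both hold the same 15 bases, found in 2 of the 27443 windows, namely these. It starts 79 bases before the annotated start of GSTU22 and 161 before that of GSTU24, is shown in capitals, and was chosen after the windows were seen. It was picked as the longest run that these 2 windows share, so its count over all windows is not a test.
GSTU22 and GSTU24 shared run: GCAGTGGCCTAAGCA
The GSTU24 window also holds exon bases of another gene, AT1G17160, and the run may lie within them.

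Genes that act with the transferases were followed too. Of the other transferase classes, 2 of 6 rose and 2 fell. DHAR2, a dehydroascorbate reductase, rose (38.6 CPM, then 473 CPM, edgeR adjusted p = 8.75e-07), as did the lambda member GSTL1 (0.253 CPM, then 19.1 CPM, edgeR adjusted p = 3.04e-06). GSTL2 fell (111 CPM, then 69.7 CPM, edgeR adjusted p = 0.00151), as did DHAR3 (288 CPM, then 188 CPM, edgeR adjusted p = 0.00611). DHAR1 and GSTL3 were not called. In glutathione synthesis GSH2, the glutathione synthetase, rose by 1.58 on the log2 scale (edgeR adjusted p = 3.86e-05) while GSH1, the enzyme of the step before it, fell by 0.36 (edgeR adjusted p = 0.0347), a call that was lost whichever of the 6 libraries was left out (edgeR adjusted p up to 0.136). Of the 6 transporters of the ABCC family listed, 3 rose and 1 fell, and ABCC3 rose most, by 4.07 (edgeR adjusted p = 1.41e-06). Of the 7 tested genes that break down glutathione or its conjugates, 5 rose and 0 fell, among them PCS1, a phytochelatin synthase, by 3.14 (edgeR adjusted p = 1.04e-06). Of TGA factors and their partner SCL14, 6 of 8 rose and 0 fell, with log2 fold changes up to 1.51 (TGA3, edgeR adjusted p = 9.23e-05), and TGA2 and TGA4 were not called.

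Pathways that hold single members can be set beside them. With GSTZ1, 3 of 5 genes of tyrosine breakdown rose and 0 fell, among them TAT3, a tyrosine aminotransferase, by 3.18 on the log2 scale (edgeR adjusted p = 1.68e-04). With GSTF11 and GSTU20, all 9 listed genes of aliphatic glucosinolate synthesis fell, with log2 fold changes of -2.21 to -1.13. Among them, CYP79F1 was at 458 and then 99.2 CPM (edgeR adjusted p = 7.05e-06). Beside GSTF6, genes of indole glucosinolate and camalexin synthesis split into 3 risen and 2 fallen of 7, and the camalexin genes CYP71A13 and PAD3 rose. CYP71A13 had 0.472, 4.36 and 0.885 CPM in high CO2, against 127, 144 and 239 CPM in high light (log2 fold change 6.45, edgeR adjusted p = 8.65e-05). PAD3 had 1.98, 11.02 and 2.34 CPM in high CO2, against 1265, 1323 and 2090.2 CPM in high light (log2 fold change 8.24, edgeR adjusted p = 2.93e-05). High CO2 replicate 2 was the highest of its group for both, and without it the log2 fold changes were 7.99 and 9.52. Beside GSTF12, 3 of 5 genes of late anthocyanin synthesis fell and 0 rose, and their summed level ran from 447 to 955 CPM in high CO2 and from 86.3 to 430.0 CPM in high light. These list counts stand against 30.4% risen and 30.3% fallen among all genes, and nothing particular to a list is read from them.

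Within the high light group, replicate 3 was mostly the highest library for these genes. High light replicate 3 had the highest CPM of the 3 high light libraries for 22 of the 24 risen members, and replicate 1 for the other 2. The same count was not made over all genes, so nothing particular to the transferases is read from it. Among the high CO2 libraries, replicate 2 was highest for 12 of the 24 and replicates 1 and 3 for 6 each. All 24 rises were called with high light replicate 3 left out.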

How the data were processed

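Per the labels' protocols, leaf RNA was made into libraries with a stranded mRNA kit. Trim Galore 0.3.3, TopHat2 2.1.0, featureCounts (Subread 1.4.6) and the TAIR10 build are named in the submitters' processing notes, and neither a strand setting nor a rule for multi-mapped reads is given in the sources used here. The authors deposited raw counts per gene, not normalized. After 2 leftover header lines were left out, 33602 genes remained. Groups came from the sample titles.

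Counts were tested with edgeR (4.0.16, R 4.3.3; filterByExpr with a minimum count of 10, 18504 genes kept; TMM factors 0.932 to 1.07; robust glmQLFit and glmQLFTest with 4 residual degrees of freedom; two-sided). Standard errors are the log2 fold change divided by the square root of F, and none is given at 0 counts. For bounds, a group at 0 counts was set to 3. Chi-square per degree of freedom between replicates was 9.28 to 49.8, above counting noise. Levels per length use the longest coding sequence. Gene structure, promoters and coordinates come from the TAIR10.1 genome and annotation of RefSeq, joined by locus, which matched all 46 members; 3 of 85 listed genes were left out for want of a matching symbol at their locus.

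Values in every library are given for the 10 largest rises, every fall, tested members not called, members counted but not tested and the 5 highest per length in each group. The members, lists and tests were chosen with earlier results of these data known. Alternatives were DESeq2 size factors, upper-quartile factors, library totals, no filter, DESeq2 1.42.0, limma-voom (limma 3.58.1), a replicate block and libraries left out.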

Additional observations from a re-analysis of the deposited data

How the results depend on the processing

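The count of risen members was 24 under every alternative run except without replicate 2 of both groups, where it was 23 (GSTU6 was lost, log2 fold change 1.25, edgeR adjusted p = 0.0747). With 1 library left out, 24 members rose each time and 3 to 8 fell. Fallen members numbered 5 without replicate 3 of both groups (4869 of all genes), 3 without replicate 2 of both groups (3666), 12 with upper-quartile factors (7883), 7 with library totals (5019) and 8 with DESeq2 (5090), against 9 and 5612 as reported. With 2 libraries left out fewer residual degrees of freedom remain.

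The labels say that the whole set-up was repeated, but not whether equal replicate numbers in the groups mark the same repeat. Deviations of same-numbered libraries correlated at 0.22, -0.02 and 0.41 over all genes and at 0.30, 0.12 and 0.20 over the members. Those of differently numbered libraries ran from -0.41 to 0.24 over all genes and from -0.31 to 0.098 over the members. Whether equal numbers mark the same repeat was not tested. With replicate number as a block, 24 members rose and 10 fell (GSTF5 was added), and 5882 and 6070 of all genes.

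Of the 7 members not called, GSTF9, GSTU16, GSTT3 and GSTU28 changed sign, while GSTF5, GSTF12 and GSTT1 were lower in high light under every alternative run. GSTF9 was at -0.23 with upper-quartile factors and ran from -0.045 to 0.11 with 1 library left out. GSTU16 ran from -0.15 to 0.10, GSTT3 from -0.17 to 0.059 and GSTU28 from -0.60 to 0.084 with 1 library left out. Dropping replicate 3 from both groups gave 0.12 for GSTU16 and 0.065 for GSTT3. The cause was not tested. Depth limits GSTU2, GSTU12, GSTU22 and GSTF3, whose folds rest on 0 to 2 counts in high CO2.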
